A study of Homo sapiens with 9 samples.

Results

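The siPIK3R3 array was compared with the negative control array, 1 array each, and 15918 of the 47317 probes on the array entered the comparison, while 31399 were detected on neither array. A probe entered where its detection p, the share of blank control probes on the array that are as bright or brighter, was under 0.01 on at least 1 of the 2 arrays. Both arrays carry RNA of KYSE30, an established human line of esophageal squamous cell carcinoma, taken on day 3 after transfection with a Lipofectamine reagent. The siPIK3R3 cells received a small interfering RNA (siRNA) named for PIK3R3, and the negative control cells received a control of unstated make-up. The other 7 arrays of the series, all KYSE30 on day 3, were siPIK3R1, an siRNA combination, miR-181b, a miRNA combination, miR-32, miR-455 and miR-181a. The labels do not state the make-up of the siRNA combination. These 7 arrays place the siPIK3R3 values and were normalized together with the 2 compared. Their median also served as an alternative reference. With 1 array per group and no replicate, no test was possible, no value has a replicate error, and a difference may be one between single cultures or arrays. The series title names a knockdown of PI3K as the question.

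PIK3R3 encodes a regulatory subunit of phosphoinositide 3-kinase (PI3K), the lipid kinase that passes growth factor signals on to AKT. An siRNA is a short double-stranded RNA that leads the cell to cut the matching messenger RNA, and double-stranded RNA in the cytoplasm is also a known trigger of the interferon response. MX1 and OAS2 are textbook genes of that response. MX1 encodes a dynamin-like GTPase that blocks viral replication, and OAS2 encodes an enzyme that is switched on by double-stranded RNA and makes the messenger that activates RNase L.

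The deposited files give probe numbers and no gene names, so most results are for probes. A marker list, separate from the deposited files and chosen with earlier results of these data known, was supplied with this comparison. It pairs ILMN_1662358 with MX1 and ILMN_1674063 with OAS2, and these are the 2 probes named by gene here. The level of PIK3R3, which would check the label of the array, was therefore not analysed here, nor were the squamous, fibroblast, leukocyte and endothelial markers.

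To show a regulatory sequence of a marker gene, RefSeq promoter windows are printed for MX1, 1 of the 2 marker genes and the one matched in the table of windows, with the core of the interferon-stimulated response element (ISRE), the site that interferon-activated factors bind. The search used GAAANNGAAA on both strands, with overlapping matches allowed. RefSeq (GRCh38.p14) gives MX1 3 start sites on chromosome 21, plus strand, each with a window of 300 bases that ends 50 bases past the start, and 2 of the 3 windows hold the core. The same letters occur in 3.57% of 35116 promoter windows, that is in 1255. The windows with a match are printed 5′ to 3′ with the core in capitals, the first at chr21:41420308-41420607 with the core from base 262 and the second at chr21:41431800-41432099 with the core on the opposite strand from base 55.
MX1 first start: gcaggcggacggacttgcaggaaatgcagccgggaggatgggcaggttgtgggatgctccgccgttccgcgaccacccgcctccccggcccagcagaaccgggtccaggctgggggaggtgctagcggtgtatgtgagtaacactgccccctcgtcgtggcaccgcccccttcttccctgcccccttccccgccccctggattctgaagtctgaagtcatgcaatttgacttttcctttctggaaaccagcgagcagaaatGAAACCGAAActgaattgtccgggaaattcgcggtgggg
MX1 start farther downstream: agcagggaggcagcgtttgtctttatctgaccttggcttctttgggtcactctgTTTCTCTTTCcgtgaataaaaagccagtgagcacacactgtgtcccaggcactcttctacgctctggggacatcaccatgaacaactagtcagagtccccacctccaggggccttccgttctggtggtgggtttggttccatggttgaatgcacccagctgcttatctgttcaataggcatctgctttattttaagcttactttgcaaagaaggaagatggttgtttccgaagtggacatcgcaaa
A match describes the letters of the window and does not show that a factor was bound there in these cells.

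The MX1 and OAS2 probes were far brighter on the siPIK3R3 array than on the negative control array. For MX1 (ILMN_1662358) the raw signal was 16836 on the siPIK3R3 array, against 672 on the negative control array. After background correction and quantile normalization its level was 13.93 on the log2 scale in siPIK3R3 and 9.12 in the negative control, a difference of 4.80 or 27.9-fold. For OAS2 (ILMN_1674063) the raw signal was 9143 on the siPIK3R3 array, against 369 on the negative control array. Its normalized level was 13.03 in siPIK3R3 and 8.14 in the negative control, a difference of 4.89 or 29.6-fold. Of the 13718 probes detected on both arrays, OAS2 had the 5th and MX1 the 8th largest difference upward. Both markers were chosen with earlier results of these data known, so their high ranks may follow from that choice. The ranks describe these probes and are no independent evidence of an interferon response.

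These 2 markers were also bright on most of the other arrays, and within 2-fold of siPIK3R3 on 4 of them. The raw MX1 signal was 13153 in siPIK3R1, 14472 in the siRNA combination, 13108 in miR-181b, 8531 in the miRNA combination, 8591 in miR-32, 6478 in miR-455 and 481 in miR-181a. On the normalized log2 scale siPIK3R3 was 0.05 above siPIK3R1, 0.18 above miR-181b and 0.37 above the miRNA combination, and its difference from the siRNA combination was -0.36. The distance of siPIK3R3 was larger from miR-32, at 1.22, and from miR-455, at 1.66, and it was 5.45 from miR-181a. Thus 7 arrays, siPIK3R3 among them, were bright for MX1, and miR-181a and the negative control were far lower. MX1 was still brighter than 56.9% of the detected probes in miR-181a and 68.6% in the negative control. The raw OAS2 signal was 5329 in siPIK3R1, 8288 in the siRNA combination, 5079.6 in miR-181b, 4219 in the miRNA combination, 3034 in miR-32, 3072 in miR-455 and 229.5 in miR-181a. OAS2 in siPIK3R3 was 0.47 above siPIK3R1, 0.64 above miR-181b and 0.51 above the miRNA combination in normalized log2 level, and its difference from the siRNA combination was -0.73. It was also 1.83 above miR-32, 1.86 above miR-455 and 5.88 above miR-181a. The order of the arrays for OAS2 again had the siRNA combination first, siPIK3R3 next, and miR-181a below the negative control. With the median of the 7 other transfections in place of the negative control, the difference in siPIK3R3 was 0.37 for MX1 and 0.64 for OAS2, both under 2-fold.

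Across all probes compared, most levels were close on the 2 arrays. The large differences ran mostly upward in siPIK3R3, as they did on most other arrays against this control. Of the 15918 probes, 562 were at least 2-fold higher in siPIK3R3 (3.53%) and 256 were at least 2-fold lower (1.61%), which is 2.20 higher probes for each lower one. At 4-fold, 159 were higher (0.999%) and 9 were lower (0.0565%). At 8-fold 63 were higher and 1 was lower, and at 16-fold 29 were higher. All these counts, those at 2-fold included, take in probes detected on 1 array alone, whose direction is set by the floor given below. Among the 13718 probes detected on both arrays, 110 were higher and 6 lower at 4-fold. At 8-fold 43 of them were higher and 1 lower, and at 16-fold 19 were higher. The median difference was -0.03 on the log2 scale, the lower quartile was -0.28 and the upper quartile 0.22, and 82.9% of the probes lay within 1.5-fold. The upward tail was longer than the downward one, with the 1st percentile of the differences at -1.12 and the 99th at 1.98. Higher probes made up 68.7% of those past 2-fold, and 53% of those past 2-fold in the authors' processed values, where 998 were higher and 885 lower. Against the same negative control, the 4-fold counts were 46 higher and 3 lower in siPIK3R1 and 217 and 55 in the siRNA combination. They were 65 and 8 in miR-181b, 79 and 33 in the miRNA combination, 24 and 0 in miR-32, 21 and 1 in miR-455, and 3 and 2 in miR-181a. An excess of higher probes at 4-fold was thus not particular to siPIK3R3.

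**Figure D1:**
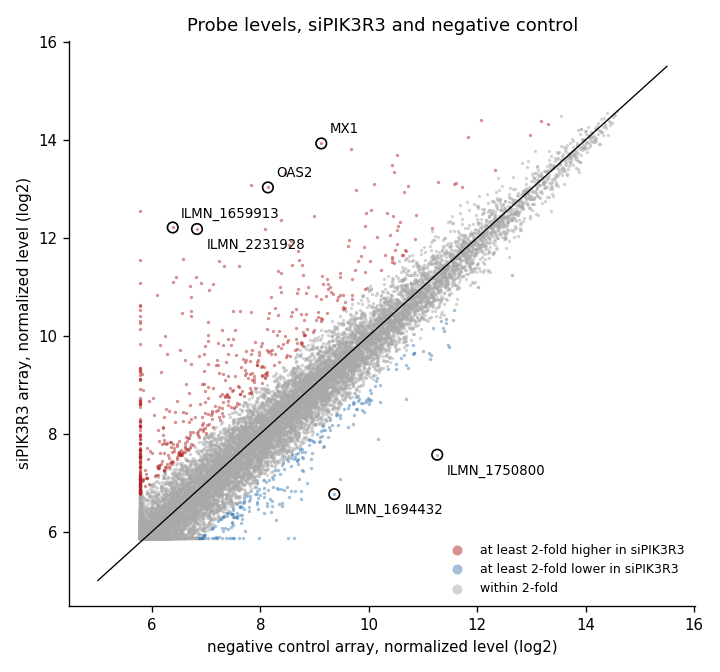
Normalized level (log2) of each of the 15918 probes on the siPIK3R3 array (vertical axis) and the negative control array (horizontal axis), 1 point per probe. Points above the line of equality are higher in siPIK3R3, the 6 named probes are circled, and the columns of points at the left and bottom edges are probes not detected on 1 array, set to the lowest detected level there.

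The probes detected on 1 array alone were fewer among the called ones than those detected on both. Of the compared probes, 13718 (86.2%) were detected on both arrays, and among them 430 (3.13%) were at least 2-fold higher in siPIK3R3 and 231 (1.68%) lower. Another 819 were detected on the siPIK3R3 array and not on the negative control array, and 132 of them (16.1%) were at least 2-fold higher. The floor given below leaves these 819 only upward differences, so their share says nothing about direction. A further 1381 were detected on the negative control array alone, and 25 of them (1.81%) were at least 2-fold lower in siPIK3R3. The floor likewise leaves these 1381 no upward difference beyond 0.09, so their share says nothing about direction either. For the probes detected on 1 array alone, the undetected side was set to the lowest level of a detected probe on that array. This floor was 5.87 in siPIK3R3 and 5.78 in the negative control, so their differences are lower bounds in size. The largest such bound was at least 109.7-fold higher in siPIK3R3, and the largest downward one was at least 6.75-fold lower. Because the floor of the siPIK3R3 array was the higher one by 0.09, 377 of the 1381 probes came out slightly above 0, which is no increase.

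The share of probes past 2-fold varied with how bright a probe was. The upward calls were spread over the levels from 7 to 12 on the log2 scale, where they made up between 3.21% and 4.39% of the probes detected on both arrays. In the dimmest group, under 7, 1.51% of 3171 probes were at least 2-fold higher in siPIK3R3 and 1.48% were lower. The directions were therefore even there among probes detected on both arrays. Probes detected on 1 array alone, with 132 higher and 25 lower in directions set by the floor, are not in these groups. Between levels 8 and 9, 118 of 2686 probes were higher in siPIK3R3 and 53 lower. Among bright probes the balance was one-sided. Between levels 11 and 12, 29 of 818 probes were higher in siPIK3R3 and 3 lower, and at 12 and above 7 of 436 and 4 of 275 were higher while none was lower by 2-fold. The median difference of each group lay between -0.08 and -0.01, and the standard deviation of the differences among probes was 0.62 between levels 8 and 9 and 0.28 at 13 and over.

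**Figure D2:**
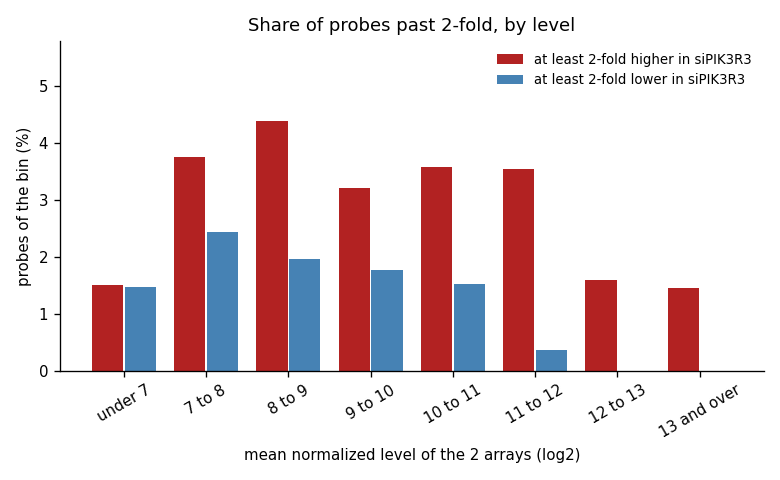
Share of probes (%) at least 2-fold higher (red) and lower (blue) in siPIK3R3 than in the negative control, by the mean normalized level (log2) of the 2 arrays, for the 13718 probes detected on both. The red bars reach 4.39% between levels 8 and 9, and no blue bar stands at 12 and above.

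The 2 probes per direction below were singled out, the highest and the lowest by difference among probes detected on both arrays, MX1 and OAS2 aside; their genes are not named here. The highest, ILMN_1659913, had a raw signal of 5159.9 in siPIK3R3, against 156 in the negative control, and its normalized difference was 5.83 or 56.8-fold. The difference was 5.03 without background correction, and 2.75 against the median of the 7 other transfections. The raw signal of this probe was 4405 in the siRNA combination, 690.2 in siPIK3R1, 748 in miR-181b, 568 in the miRNA combination, 323 in miR-32, 311 in miR-455 and 146 in miR-181a. Of the 9 arrays, siPIK3R3 and the siRNA combination were therefore far brighter than the others. In normalized log2 level siPIK3R3 was 2.74 above siPIK3R1, 2.73 above miR-181b and 2.75 above the miRNA combination. Its difference from the siRNA combination was -0.66, so the siRNA combination was the highest array on that scale. The next, ILMN_2231928, had a raw signal of 5051 in siPIK3R3, against 189 in the negative control, with a normalized difference of 5.35 or 40.7-fold. The difference was 4.73 without background correction, and 1.80 against the median of the 7 other transfections. Its raw signal was 2278 in the siRNA combination, 1903 in miR-181b, 1745 in miR-32, 1663 in miR-455, 1271 in the miRNA combination, 1186 in siPIK3R1 and 187 in miR-181a. For this probe siPIK3R3 was the brightest array, and miR-181a was as dim as the negative control. In normalized log2 level siPIK3R3 was only 0.23 above the siRNA combination.

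The lowest probe, ILMN_1750800, had a raw signal of 262 in siPIK3R3, against 2715 in the negative control, a normalized difference of -3.69, which is 12.9-fold lower. Its raw signal was 158 in the siRNA combination, 1178 in siPIK3R1, 1507 in miR-181b, 1275 in the miRNA combination, 1970.3 in miR-32, 1995 in miR-455 and 2683 in miR-181a. The siPIK3R3 array and the siRNA combination were both low, with normalized levels of 7.57 and 7.71, and every other array lay at 10.30 or above. Against the median of the 7 other transfections the difference in siPIK3R3 was -2.99. The other low probe, ILMN_1694432, had a raw signal of 177 in siPIK3R3, against 776 in the negative control, a normalized difference of -2.60, which is 6.06-fold lower. It was less particular to siPIK3R3, with raw signals of 73.1 in the siRNA combination, where it was not detected, 122 in the miRNA combination and 206 in miR-181b, and between 352 and 518 in the other 4 transfections. Against the median of the 7 other transfections its difference was -0.97.

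**Figure D3:**
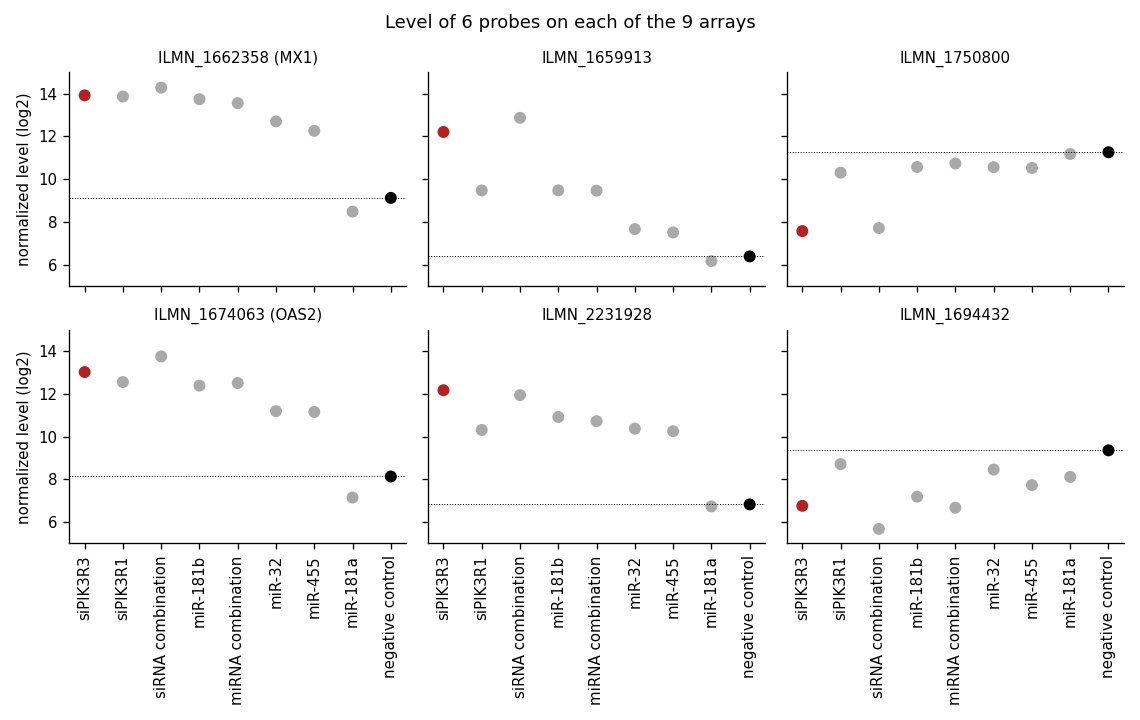
Normalized level (log2) of 6 probes on each of the 9 arrays, with siPIK3R3 in red, the negative control in black with a dotted line at its level, and the other arrays in grey. MX1 and OAS2 are high on 7 arrays, ILMN_1659913 is highest in siPIK3R3 and the siRNA combination, and ILMN_1750800 is lowest on the same 2 arrays.

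The 562 higher probes as a set had a median raw signal of 564 in siPIK3R3 and 201 in the negative control. They were chosen for this difference, so the values describe the set and are no evidence for it. Their median normalized level was 8.88 in siPIK3R3 and 6.96 in the negative control. On the siRNA combination array the median was 8.87, next to that of siPIK3R3. On the other 6 arrays the medians lay in between, at 7.97 in miR-181b, 7.82 in the miRNA combination, 7.62 in both siPIK3R1 and miR-455, 7.56 in miR-32 and 7.14 in miR-181a. After background correction and quantile normalization, the same probes held 5.25% of the summed signal of all probes in siPIK3R3 and 1.30% in the negative control. The share was 5.39% in the siRNA combination and between 1.38% and 3.02% on the other 6 arrays. Of the 562, 307 (54.6%) were highest in siPIK3R3 of all 9 arrays, against 15.7% of all compared probes. In 171 (30.4%) the negative control was the lowest of the 9 arrays, against 7.36% of all compared probes. The set was chosen for a high siPIK3R3 and a low control value, so both shares were bound to be high.

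The 256 lower probes had a median raw signal of 201 in siPIK3R3 and 439 in the negative control. Their median normalized level was 7.04 in siPIK3R3 and 8.44 in the negative control. It was 7.68 in the siRNA combination and between 7.93 and 8.37 on the other 6 arrays, with siPIK3R3 the lowest. In 174 of the 256 (68.0%) siPIK3R3 was the lowest array, against 16.2% of all compared probes, and in 93 (36.3%) the negative control was the highest, against 10.9%. These probes were chosen for a low siPIK3R3 and a high control value, so this order and both shares follow from the choice. The lower probes held 0.429% of the summed signal in siPIK3R3 and 1.08% in the negative control.

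**Figure D4:**
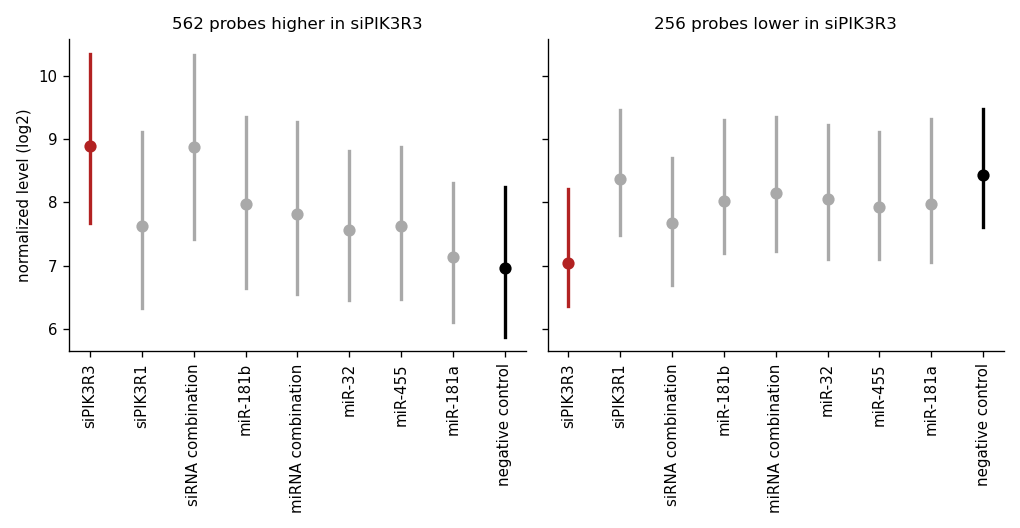
Median (point) and interquartile range (bar) of the normalized level (log2) of the 562 probes higher and the 256 probes lower in siPIK3R3 than in the negative control, on each of the 9 arrays. For the higher probes the siRNA combination, at 8.87, stands level with siPIK3R3, at 8.88, and for the lower probes the siRNA combination, at 7.68, is the nearest to siPIK3R3, at 7.04. The probes were chosen for their siPIK3R3 and control values, so the distance between these 2 arrays is set by the choice.

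A small part of the probes that differed from the negative control also stood apart from every other array. Of the 15918 compared probes, 54 were at least 2-fold higher in siPIK3R3 than on each of the 8 other arrays, by up to 2.34 on the log2 scale over the next array, and 12 were at least 2-fold lower, by up to 1.66. Leaving the siRNA combination, whose make-up is not stated, out of the arrays compared, 162 were higher and 34 lower. Of the 562 higher probes, 319 were also at least 2-fold above the median of the 7 other transfections, and 102 of the 256 lower ones were at least 2-fold below it. Over all 15918 compared probes these counts were 495 and 249, and since both sets were chosen with the same siPIK3R3 values, larger shares in them follow from the choice. The median distance of the 562 from the median of those 7 arrays was 1.09, and that of the 256 was -0.90.

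The siPIK3R3 array was also set against each other array in turn, with each comparison on its own probes and all of them sharing the siPIK3R3 array. Against siPIK3R1, the siRNA named for another PI3K regulatory subunit, 5.84% of 15829 probes were at least 2-fold higher in siPIK3R3 and 6.06% lower, so the directions were nearly even. Against the siRNA combination the shares were 6.37% higher and 4.78% lower in siPIK3R3, and against miR-181b 3.88% and 2.81%. Against the miRNA combination they were 8.15% and 6.42%. The smallest shares were those against miR-455, with 2.61% higher and 0.873% lower in siPIK3R3, and against miR-32, with 2.67% and 1.06%. Against miR-181a they were 3.54% and 1.71%, next to the 3.53% and 1.61% against the negative control. The standard deviation of the differences among probes was 0.45 for miR-455, 0.46 for miR-32, 0.55 for miR-181b, 0.56 for both miR-181a and the negative control, 0.63 for the siRNA combination, 0.66 for siPIK3R1 and 0.71 for the miRNA combination. Over all probes the siRNA combination was thus among the arrays farthest from siPIK3R3, although the 562 higher probes had nearly the same median on both. The siRNA combination was farther still from the negative control, with a standard deviation of 0.74, and 1071 probes higher and 1151 lower by 2-fold. The mean raw signal was 392 in siPIK3R3 and 406 in the negative control, between 343 and 468 on the other single-agent arrays, and 223 in the siRNA and 270.3 in the miRNA combination; the part of this signal difference in the distances was not tested.

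**Figure D5:**
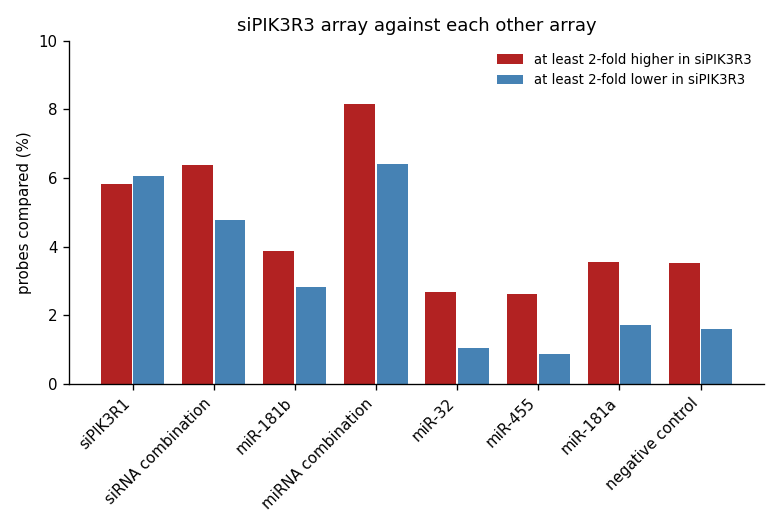
Share of compared probes (%) at least 2-fold higher (red) and lower (blue) in siPIK3R3 than on each of the 8 other arrays, 1 comparison per pair of bars. The bars are shortest against miR-455 and miR-32 and tallest against the miRNA combination, at 8.15% higher.

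The probes nearest to the detection threshold had signals close to background. The 203 probes whose better detection p was just inside it, at 0.00909, had a median raw signal of 119.9 in siPIK3R3 and 124 in the negative control, and the 335 just outside, at 0.0104, had 118 and 115. Near the 2-fold threshold, 92 probes had a difference of 1.0 to 1.1 and 102 one of 0.9 to 1.0, while 85 lay between -1.1 and -1.0 and 134 between -1.0 and -0.9. A count at 2-fold therefore moves with small shifts of the values.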

How the data were processed

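Gene expression was measured on Illumina arrays, 1 array per group and 9 in all. The deposited raw table gives, per the file headers, an average bead intensity (linear scale) and a detection p-value per probe and array. The second deposited table holds processed intensity values made by the authors, on a linear scale and with an equal mean on every array. No source used here names the scanner software. Raw signals of all 9 arrays were corrected and quantile normalized together as log2 values by the neqc function (offset 16, background inferred through the detection p-values) in limma 3.58.1 under R 4.3.3. The remaining steps used Python 3.11.15, numpy 2.4.6 and pandas 2.3.3. A probe was compared where its detection p was under 0.01 on either array. An undetected value below the lowest detected level of its array was raised to that level. A log2 difference of 1 in size counted as different, a rule of size in place of a test; the code was tested on simulated data. The planned 29 gene lists, counts of genes and levels of PIK3R3 and PIK3R1 were not analysed here, because the probes carry no gene names. The rule for named genes was to take those with the largest differences, or by probe number at most 2 higher and 2 lower. The set of probes, the markers and the lists were chosen with earlier results of these data known. The alternatives were log2 raw signal with quantiles alone, a neqc offset of 50, scaling by the median over probes detected on all 9 arrays, the processed values (floored at 16), a reference made from the median of the 7 other transfections, a looser detection limit of 0.05, no limit at all, unfloored values, and thresholds of 1.5-fold and 4-fold. The number of arrays limits the precision.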

Additional observations from a re-analysis of the deposited data

How the results depend on the processing

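The balance toward higher probes in siPIK3R3 kept its direction in every alternative run, and the counts moved; the cause was not tested. Without background correction 359 probes were at least 2-fold higher in siPIK3R3 and 99 lower. With an offset of 50 the counts were 414 higher and 145 lower. In the authors' processed values they were 998 and 885. At 1.5-fold they were 1371 and 1358, nearly even, and at 4-fold 159 and 9. The other alternatives gave 495 to 670 higher and 253 to 318 lower probes, within 1.5 times the counts reported. One of them, normalizing the siPIK3R3 and negative control arrays alone, was added after seeing the data and gave 574 and 277. The detection limits and the floor cannot alter the 6 named probes, which were detected on both arrays. Under the other alternatives, 27 of 36 values of these probes lay within 0.5 on the log2 scale of the value reported, 9 moved further, and none changed sign. The median of the 7 other transfections as the reference moved all 6. No paired analysis was possible because there is a single array per group. The counts of genes, the gene lists and the mean over probes of a gene were not run, because the probes carry no gene names. Probes near background have differences that depend on the floor and the offset.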
